A study of Mus musculus with 6 samples.

Results

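The replication-dependent histone genes are the genes of the core histones H2A, H2B, H3 and H4 and of the linker histone H1 that lie together in clusters. They were taken as the protein-coding genes whose mm10 symbol starts with Hist1h, Hist2h, Hist3h or Hist4h, most of which carry newer names such as H1f1, H2ac1, H2bc1, H3c1 and H4c1. The rule found 67 genes among the 21436 protein-coding genes that could be given a 5′ end. They comprised 6 genes of H1, 18 of H2A, 18 of H2B, 12 of H3 and 13 of H4. H2bu2, H2aw, H4f16 and H4bc24 entered by their older symbols, and H4bc24 was counted as an H2B gene after its older symbol Hist1h2br. The genes lay in 5 places of the genome, 23 in a proximal and 31 in a distal group on chromosome 13, 10 on chromosome 3, 2 on chromosome 11 and 1 on chromosome 6.

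Open chromatin was mapped with ATAC-seq, a method that lets the transposase Tn5 cut and tag exposed DNA. The libraries came from spermatogonia, the dividing germ cells from which sperm arise, of mice at postnatal day 5 (Pnd 5), enriched by a plating step that removes somatic cells. The S7KO group held 3 libraries from Sirt7-/- mice, which lack the histone deacetylase SIRT7 in every cell, and the WT group held 3 libraries from wild-type mice of the same 129S1/Sv strain. The comparison asked whether the absence of SIRT7 altered accessibility. Each library is called by its group and the number in its title (1, 2 and 4 in both groups).

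Replication-dependent histone genes are short and without introns, and they are transcribed in S phase, when new DNA has to be packed into nucleosomes. Their mRNAs end in a stem loop instead of a poly(A) tail, and their transcription is organised around NPAT at nuclear sites called histone locus bodies. Many H2A and H2B genes stand head to head and share the sequence between them as a promoter for both. H1f6 (also called H1t), H2bc1 (TH2B) and H2ac1 (TH2A) are testis-type histone genes known for their high expression in later germ cells.

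The sequence before the 5′ end is shown for some of these promoters, chosen by the reasons given next and not as typical of their histone type. H4c1 and H1f1 are shown because the peak with the longest median lay over them, H2ac10 because it had the narrowest, H2bc11 to H2ac11 as a shared promoter under another long peak, H1f6 and H2ac1 as testis-type genes, and H2ac23 to H2bc23 as a shared promoter under no peak. All are mm10 (GRCm38.p6) sequences of RefSeq, which had an entry for 62 of the 67 genes. Each is written 5′ to 3′ on the strand of the gene named first, and capitals mark any of 4 motifs on either strand. The first is CCAAT, which reads ATTGG where it lies on the opposite strand. Next is the TATA box, searched as TATAAA, with the reverse complement TTTATA also in capitals. A longer motif is the octamer ATTTGCAT, whose reverse complement is ATGCAAAT. The last is the H1 box, searched as AAACACA and, for the opposite strand, as TGTGTTT. None of them contains another.
H4c1, chr13:23761250-23761399, minus strand: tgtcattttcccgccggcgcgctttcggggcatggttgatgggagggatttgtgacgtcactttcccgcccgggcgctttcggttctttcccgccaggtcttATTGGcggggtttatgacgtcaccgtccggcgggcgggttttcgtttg
H1f1, chr13:23763418-23763667, plus strand: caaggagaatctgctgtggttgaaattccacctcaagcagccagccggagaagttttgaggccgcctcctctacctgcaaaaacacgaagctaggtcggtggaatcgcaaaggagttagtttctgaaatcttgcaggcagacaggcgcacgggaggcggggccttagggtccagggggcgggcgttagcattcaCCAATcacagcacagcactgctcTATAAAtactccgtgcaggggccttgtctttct
H2bc11 to H2ac11, chr13:22042950-22043197, plus strand: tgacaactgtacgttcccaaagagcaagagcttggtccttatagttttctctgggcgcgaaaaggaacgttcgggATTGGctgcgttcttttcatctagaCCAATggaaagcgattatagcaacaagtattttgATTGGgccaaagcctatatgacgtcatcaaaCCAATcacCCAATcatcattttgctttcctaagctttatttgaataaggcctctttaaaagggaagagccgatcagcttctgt
H2ac10, chr13:23533625-23533874, plus strand: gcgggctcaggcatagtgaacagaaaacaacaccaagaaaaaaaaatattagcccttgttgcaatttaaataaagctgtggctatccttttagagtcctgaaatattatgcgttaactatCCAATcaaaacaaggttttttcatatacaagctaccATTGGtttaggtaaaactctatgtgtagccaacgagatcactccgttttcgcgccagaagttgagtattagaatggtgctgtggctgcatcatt
H1f6, chr13:23695661-23695810, plus strand: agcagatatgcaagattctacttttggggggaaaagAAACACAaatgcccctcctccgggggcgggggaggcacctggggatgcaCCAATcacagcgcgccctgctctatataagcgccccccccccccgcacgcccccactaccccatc
H2ac1, chr13:23934187-23934436, plus strand: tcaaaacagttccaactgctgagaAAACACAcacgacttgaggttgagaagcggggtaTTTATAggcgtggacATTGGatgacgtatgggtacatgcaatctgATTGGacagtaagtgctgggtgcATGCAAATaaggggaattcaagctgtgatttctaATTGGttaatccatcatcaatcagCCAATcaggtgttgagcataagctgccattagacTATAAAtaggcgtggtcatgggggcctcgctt
H2ac23 to H2bc23, chr13:21810200-21810366, plus strand: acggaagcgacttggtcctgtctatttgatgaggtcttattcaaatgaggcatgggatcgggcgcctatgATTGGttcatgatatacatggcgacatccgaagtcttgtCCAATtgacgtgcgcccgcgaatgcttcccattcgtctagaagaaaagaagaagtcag

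CCAAT, the letters known to bind NF-Y, stood in the 250 bases before the start of 51 of the 62 genes (82.3%), on either strand, against 36.5% of 17491 promoters of protein-coding genes. All 18 H2A genes, all 16 H2B genes and all 6 H1 genes with an entry held it, as did 8 of 10 H3 genes, whereas 3 of 12 H4 genes did. H4c1, shown above, is among these 3. ATTTGCAT, the octamer bound by OCT1, was in 7 of 18 H2A and 6 of 16 H2B windows and in none of the 28 windows of H1, H3 and H4 genes, against 1.62% of all promoters. Head-to-head H2A and H2B genes share most of their windows, so these are not independent counts. AAACACA, known from H1 promoters, was in 5 of 6 H1 windows and in 5.45% of all promoters. H1f1, shown above, is the H1 gene without it. TATAAA stood in 29 of 62 windows (46.8%), on either strand, against 12.4% of all promoters. On the gene's own strand 20 to 40 bases before the start it stood in 12 of 62 (19.4%), against 2.82% of all promoters. By type this was 4 of 6 H1, 4 of 18 H2A, 1 of 16 H2B, 2 of 10 H3 and 1 of 12 H4 genes. In the H1f1 sequence CCAAT and TATAAA follow each other closely before the start, and the H2bc11 to H2ac11 sequence holds 5 copies of CCAAT or its reverse complement. A match of letters is a description of the sequence and no measured binding.

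The 6 peak lists held between 105728 and 133663 peaks on the autosomes and sex chromosomes. WT replicate 2 had the fewest peaks and covered 81.5 Mb of the genome, against 100.1 to 107.7 Mb in the other 5 libraries. Read depth per library was not used here. Covered length, the median log2 width difference and the counts of called genes are therefore also given without that library. Median widths in bp and whole-gene counts are not. A promoter peak was found within 1 kb of the 5′ end in all 6 libraries for 10 of 10 spermatogonia markers (Zbtb16, which encodes PLZF, among them), but also for 5 of 5 Sertoli cell and 4 of 4 peritubular and stromal markers, for 1 of 4 Leydig cell and 1 of 2 blood cell markers. Over all protein-coding genes the share was 68.2%, so these counts say little about which cells were present. In the study's flow cytometry, most cells from WT testes stained for PLZF after the plating step. The part of other testis cells in these peaks was not tested. In bulk libraries, more cells of a type and more open chromatin per cell cannot be told apart.

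The promoters of 61 of the 67 histone genes carried a peak within 1 kb in all 6 libraries, 5 carried none in any library, and H3c14 lacked one in WT replicate 2. Over all protein-coding genes 68.2% had a promoter peak in all 6 libraries and 27.7% had none. By library, 62, 62 and 62 histone genes had a promoter peak in S7KO replicates 1, 2 and 4, and 62, 61 and 62 in WT replicates 1, 2 and 4, so the genotypes overlapped. No histone gene had a promoter peak in 3 of 3 libraries of one genotype and in 0 of 3 of the other. Over all protein-coding genes 0.0327% (7 genes) had this pattern towards S7KO and 0% (0 genes) towards WT.

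**Figure D1:**
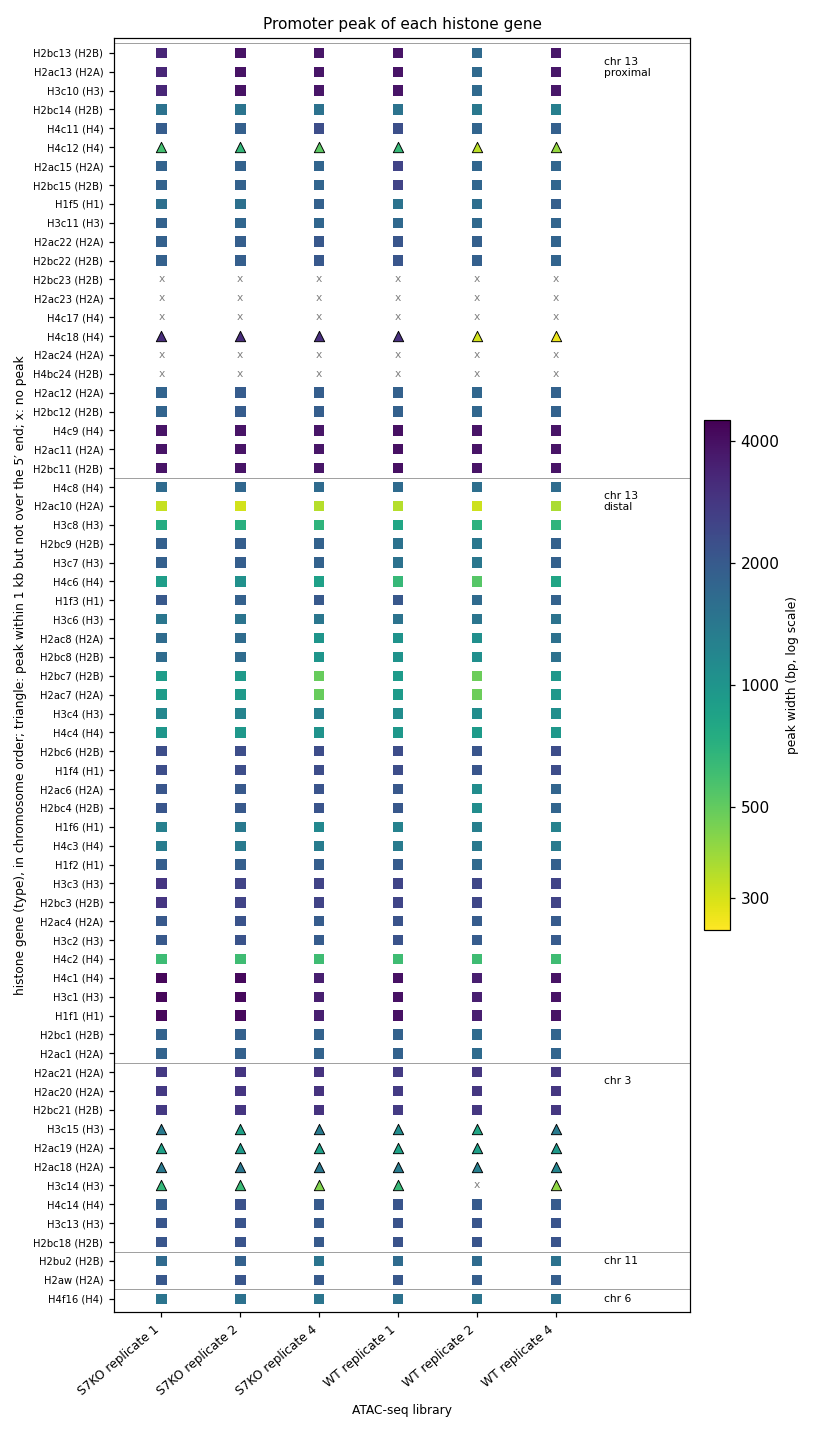
Width of the promoter peak (bp, colour on a log scale) of each of the 67 histone genes (rows, in chromosome order) in each of the 6 libraries (columns). Squares are peaks over the 5′ end, triangles are peaks within 1 kb of it but not over it, and x marks no peak. The 5 genes without a peak and the triangles sit together in stretches of the proximal chromosome 13 group and of chromosome 3, in the same rows in S7KO and WT apart from H3c14 in WT replicate 2.

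All 6 H1 genes, which encode the linker histones, and 11 of the 12 H3 genes had a promoter peak in every library. The same was true of 16 of 18 H2A, 16 of 18 H2B and 12 of 13 H4 genes. In the distal group of chromosome 13, all 31 genes had a promoter peak in all 6 libraries. The proximal group had one for 18 of 23 genes and chromosome 3 for 9 of 10. Outside these groups, H2bu2 (H2B) and H2aw (H2A) on chromosome 11 and H4f16 (H4) on chromosome 6 had one in every library. The H2bu2 peak measured 1674, 1858 and 1479 bp in S7KO replicates 1, 2 and 4, and 1652, 1658 and 1519 bp in WT replicates 1, 2 and 4. The H4f16 peak was among the steadiest, between 1469 and 1535 bp in all 6 libraries.

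The genes without any peak were the H2B genes H2bc23 and H4bc24, the H2A genes H2ac23 and H2ac24, and the H4 gene H4c17. All lay in 1 stretch of the proximal group, from chr13:21806412-21810199 (H2bc23) to chr13:21833743-21837530 (H4bc24), in which the same genes appear a second time in reverse order. The promoter of H2bc23 matched that of H4bc24 at 250 of 250 bases. H4c17 and H4c18 were also copies of each other, and the following stretches before their 5′ ends, in which capitals would mark a differing base, differed at 0 of 150 bases.
H4c17, chr13:21811595-21811744, plus strand: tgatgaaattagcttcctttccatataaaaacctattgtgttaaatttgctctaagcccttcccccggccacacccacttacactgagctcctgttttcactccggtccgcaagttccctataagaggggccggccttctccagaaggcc
H4c18, chr13:21832198-21832347, minus strand: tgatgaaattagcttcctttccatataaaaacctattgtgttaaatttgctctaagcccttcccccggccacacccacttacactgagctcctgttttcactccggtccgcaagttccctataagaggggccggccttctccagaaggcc

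To find further copies, the 300-base promoter sequence of each gene was aligned to the mouse genome. Of the 62 histone genes with an entry, 12 had a second place with at least 100 bases at 95% identity or more, and they were all 5 genes without a peak together with H4c18, H4c11, H4c12, H3c14, H3c15, H2ac18 and H2ac19. Of these 12, only H4c11 had a peak over its 5′ end in any library. Of the 50 histone genes whose promoter had no second place, 50 had a peak over the 5′ end in all 6 libraries. The same measure over all 17491 promoters gave a peak over the 5′ end in all 6 libraries for 4.72% of 1739 promoters with a second place and for 64.7% of 15752 promoters without one. The authors kept only reads with a single alignment, by mapping quality and by the absence of a second alignment score. The share of reads that this removed at each promoter was not tested.

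H4c11 and H4c12, a pair of H4 genes in the proximal group, show the boundary of this pattern. Their sequences before the 5′ end, shown here with the 7 of 150 differing bases in capitals, are close but not identical.
H4c11, chr13:21734884-21735033, plus strand: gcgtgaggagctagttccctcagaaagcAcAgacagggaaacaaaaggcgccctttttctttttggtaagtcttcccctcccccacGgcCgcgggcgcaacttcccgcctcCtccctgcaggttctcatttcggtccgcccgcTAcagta
H4c12, chr13:21750568-21750717, minus strand: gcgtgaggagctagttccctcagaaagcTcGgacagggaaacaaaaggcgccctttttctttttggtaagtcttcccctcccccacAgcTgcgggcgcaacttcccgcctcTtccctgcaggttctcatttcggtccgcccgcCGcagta
H4c11 had a peak over its 5′ end of 1950, 1868 and 2273 bp in S7KO replicates 1, 2 and 4, and of 2248, 1774 and 1877 bp in WT replicates 1, 2 and 4. The nearest peak to H4c12 was narrower, with 594, 662 and 518 bp in S7KO and 647, 336 and 394 bp in WT, and it began 308 to 348 bp from the 5′ end. On chromosome 3 the mirrored copies H2ac18 and H2ac19 (H2A) and H3c14 and H3c15 (H3) likewise had their nearest peak 37 to 52 bp, 76 to 188 bp, 562 to 619 bp and 487 to 512 bp from the 5′ end, in S7KO and WT alike. Altogether 5 histone genes had a promoter peak in all 6 libraries that did not reach the 5′ end, and H3c14 had one in 5 libraries.

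**Figure D2:**
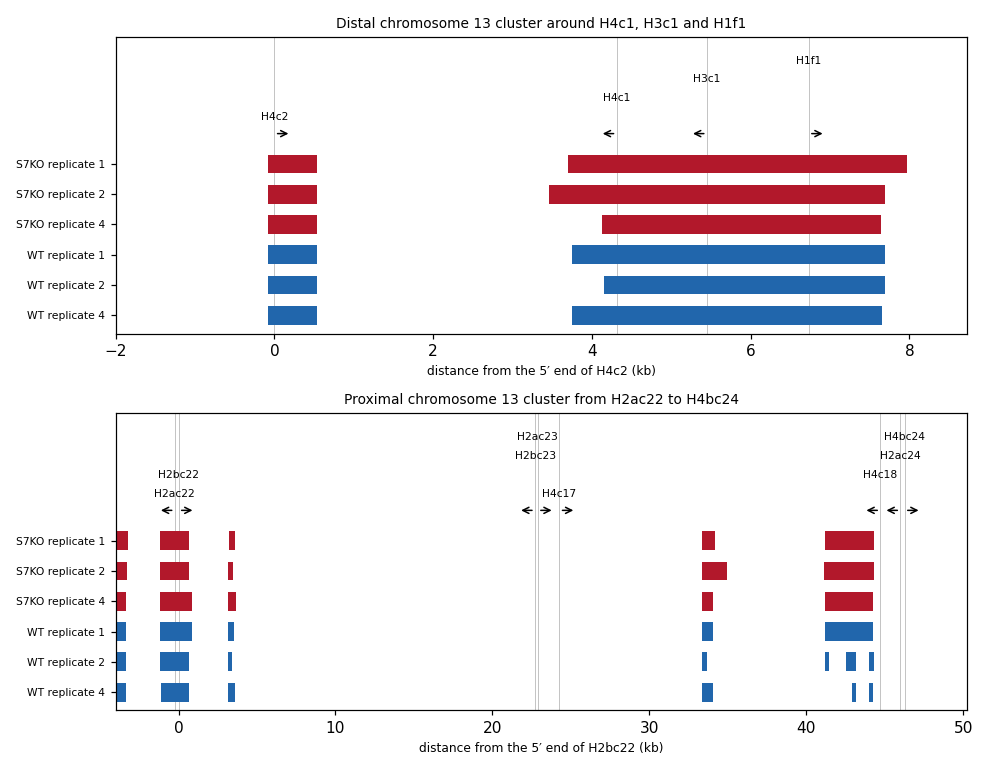
Peaks of the 6 libraries (rows, S7KO red, WT blue) in a stretch of the distal and of the proximal chromosome 13 group, by distance in kb from the 5′ end of H4c2 (top) and H2bc22 (bottom). Grey lines are 5′ ends and arrows the direction of transcription. A single peak spans H4c1, H3c1 and H1f1 in every library, whereas no peak lies at H2bc23, H2ac23, H4c17, H2ac24 or H4bc24, and the peak beside H4c18 is broken into pieces in WT replicates 2 and 4.

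Peaks at histone genes were wide, and much of the gene itself lay inside them. The median promoter peak of the histone genes measured 1857, 1888 and 1922 bp in S7KO replicates 1, 2 and 4, and 1999.5, 1676 and 1793 bp in WT replicates 1, 2 and 4. Over all protein-coding genes with a promoter peak the median was 1426, 1424 and 1406 bp in S7KO, and 1445, 1318 and 1397 bp in WT. The histone genes were above all genes in each library, and the genotype means, 1889 ± 32.5 bp in S7KO against 1823 ± 164 bp in WT (mean ± SD over 3 libraries), differed by less than the spread of the WT libraries. WT replicate 2 had the narrowest median for both sets. For the histone genes, WT replicate 1 (1999.5 bp) lay above and WT replicate 4 (1793 bp) below all S7KO libraries. Where the peak covered the 5′ end in all 6 libraries, it reached a median of 908 bp before and 879 bp after it over 56 histone genes, against 532 bp before and 827 bp after it over 12787 genes. Neighbouring histone genes often share 1 peak, so 62 promoter peaks by gene came from 42 separate peaks in each S7KO library, and from 42, 41 and 42 in the WT libraries.

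The whole gene lay inside its promoter peak for 46, 45 and 42 histone genes in S7KO replicates 1, 2 and 4, and for 43, 36 and 45 in WT replicates 1, 2 and 4. This was 59.0% to 74.2% of the histone genes with a peak, against 18.9% to 27.0% of other protein-coding genes of at most 1 kb with a peak. In 36 histone genes it was so in all 6 libraries. The comparison was not matched for gene length, and the histone genes had no limit of 1 kb. By rank the histone genes did not stand above all genes. Ranked by the deposited q-value, the peaks of the histone genes had a median rank within the top 8.68% to 9.88% of their list, and the promoter peaks of all protein-coding genes one within the top 7.30% to 9.42%. In every library the histone genes had the lower placed median. It was 9.17% against 9.05% in S7KO replicate 1, and 8.90% against 7.30% in S7KO replicate 4. The linker histone gene H1f2 and the H2A and H2B genes H2ac8 and H2bc8 ranked best among the histone genes, with median ranks in the top 3.46% and 3.61%.

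By type, the median over the genes' own median widths was 1921 bp for H1, 1866 bp for H2A and for H2B, 1843 bp for H3 and 1582 bp for H4. In H1f2, H1f3, H1f4 and H1f5 the peak lay mostly on the gene side, as in H1f2 with medians over libraries of 490.5 bp before and 1425 bp after the 5′ end. H1f1, under a shared peak, had 2978.5 bp before and 961 bp after it, and H1f6 had 664.5 bp before and 608 bp after it. Over the H2A and H2B genes the medians were 1049 and 1052 bp before the 5′ end and 853 and 732 bp after it. The median H4 peak width was 1569, 1632.5 and 1563.5 bp in S7KO replicates 1, 2 and 4, and 1596.5, 1435 and 1450 bp in WT replicates 1, 2 and 4. H4 genes were thus the lowest of the 5 types in every library, and H1, H2A and H2B changed places between libraries.

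**Figure D3:**
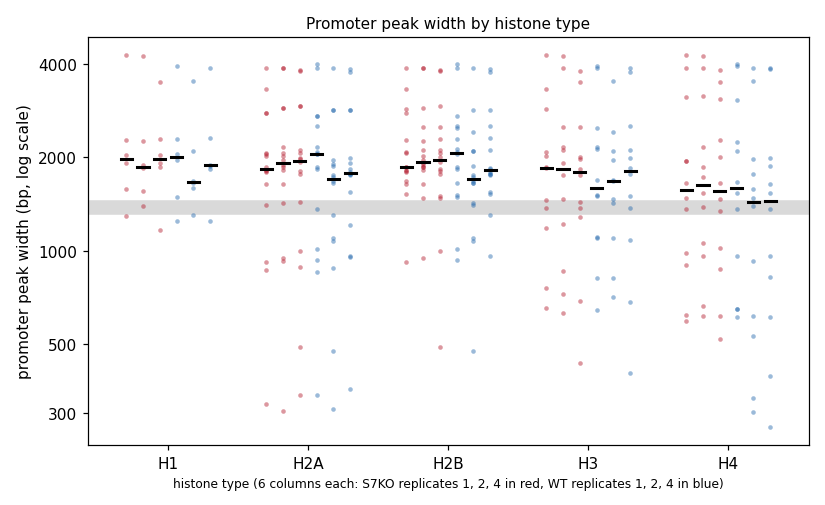
Promoter peak width (bp, log axis) of each histone gene by histone type, with 1 column for each library (S7KO replicates 1, 2 and 4 in red, then WT replicates 1, 2 and 4 in blue). Black bars are medians over genes, and the grey band is the range of the medians over all protein-coding genes in the 6 libraries (1318 to 1445 bp). Genes under a shared peak appear once each at its width, and in each library the median bars of H1, H2A, H2B and H3 lie above the band.

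Many of these peaks joined neighbours. A peak was counted as joining when it lay within 1 kb of the 5′ end of at least 2 histone genes, which was so for 38, 38 and 36 genes in S7KO replicates 1, 2 and 4, and for 38, 38 and 36 in WT replicates 1, 2 and 4. The counts were the same in both genotypes, and 36 genes were joined in all 6 libraries. H2ac10 and H3c8, which are read from neighbouring promoters in the same direction, made the difference, since the H3c8 peak lay at the edge of the 1 kb window of H2ac10. Including other protein-coding neighbours, 37 of the 67 histone genes shared their promoter peak with another gene in all 6 libraries, against 11.8% of all protein-coding genes. There were 16 joining peaks present in all 6 libraries, 12 over 2 genes and 4 over 3 genes. By type, 14 of 18 H2B and 12 of 18 H2A genes were joined in all 6 libraries, and 6 of 12 H3, 2 of 6 H1 and 2 of 13 H4 genes.

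Head-to-head pairs made up most of the joined genes. There were 13 pairs of histone genes with their 5′ ends facing apart within 1 kb, of which 12 were an H2A and an H2B gene, 164 to 281 bp apart. The other was H2bc9 and H3c7, an H2B and an H3 gene 608 bp apart. Of the 26 genes in such pairs, 22 were joined in all 6 libraries. The other 4 were H2bc23, H2ac23, H2ac24 and H4bc24, without a peak. A further 14 genes were joined in all 6 libraries without a head-to-head partner.

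The joining peak with the longest median over the 6 libraries spanned H4c1, H3c1 and H1f1, genes of H4, H3 and H1 whose 5′ ends stretch over 2419 bp. It measured 4267, 4242 and 3513 bp in S7KO replicates 1, 2 and 4, and 3940, 3540 and 3896 bp in WT replicates 1, 2 and 4, so the genotypes overlapped. It carried H1f1, whose promoter is shown with its CCAAT and TATAAA letters, and H4c1, whose sequence holds a single ATTGG. The next peak joined H4c9, H2ac11 and H2bc11 (H4, H2A and H2B) and varied less, with 3884, 3877 and 3837 bp in S7KO and 3991, 3878 and 3843 bp in WT. It was the longer of the pair in S7KO replicate 4 and in WT replicates 1 and 2. The peak over H2bc13, H2ac13 and H3c10 measured 3316, 3897 and 3809 bp in S7KO replicates 1, 2 and 4, and 3871, 1676 and 3775 bp in WT replicates 1, 2 and 4, and only WT replicate 2 was short. Even there the peak still lay within 1 kb of all 3 genes. On chromosome 3, H2ac21, H2ac20 and H2bc21 shared a peak of 2722 to 2936 bp. H3c3 and H2bc3 shared one of 2423 to 2874 bp, with S7KO replicate 1 the widest.

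The other shared peaks of chromosome 3 lay over H3c13 and H2bc18, with 2088, 2113 and 2002 bp in S7KO and 2136, 2096 and 2117 bp in WT. H4c14 (H4) had a peak of its own of 1948 to 2162 bp. H2aw, the H2A gene of chromosome 11, had one of 2044, 2067 and 1996 bp in S7KO and 2056, 1910 and 1922 bp in WT. In these peaks S7KO and WT overlapped.

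The narrowest promoter peak belonged to H2ac10, an H2A gene of the distal group without a head-to-head partner. It measured 321, 304 and 343 bp in S7KO replicates 1, 2 and 4, and 343, 310 and 359 bp in WT replicates 1, 2 and 4, and lay mostly before the 5′ end, with a median of 256 bp before and 73 bp after it. Its ranks by q-value, in the top 14.1% to 29.1%, were well above the end of each list. Next came H4c12, whose peak missed the 5′ end, and H4c2, with 620, 615 and 616 bp in S7KO and 610, 616 and 614 bp in WT. H4c2 varied by 10 bp over all 6 libraries and covered its whole gene in each of them. The peak beside H3c14 measured 655, 632 and 434 bp in S7KO and 643 and 404 bp in WT replicates 1 and 4. H3c8 completed the list, with 684 to 817 bp.

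The testis-type histone genes had promoter peaks in all 6 libraries. The shared peak of H2bc1 and H2ac1 measured 1822, 1857 and 1806 bp in S7KO replicates 1, 2 and 4, and 1830, 1649 and 1764 bp in WT replicates 1, 2 and 4. Its rank was in the top 10.6% to 14.8% of the lists. The printed H2ac1 sequence holds a TATA box, several copies of CCAAT or its reverse complement, and the reverse complement of the octamer. H1f6 had the narrowest peak among the H1 genes, with 1296, 1391 and 1166 bp in S7KO and 1247, 1305 and 1251 bp in WT. By q-value it stood between the top 54.4% and 71.4% of each list, the lowest median rank of any H1 gene. The S7KO and WT widths overlapped for H1f6 and for the H2bc1 and H2ac1 peak.

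To compare the genotypes gene by gene, the log2 width of the promoter peak, centred on each library's median, was fitted with limma for the 14609 protein-coding genes with a promoter peak in all 6 libraries. None of the 61 histone genes tested was called at an adjusted p under 0.05, and the smallest limma Benjamini-Hochberg adjusted p was 0.966. One of the 61, H4c6, had an unadjusted limma p under 0.05. The lack of calls does not show equal widths, since the SE reached 0.94 (H4c18) with 3 libraries per group. Over all genes 0.0753% (11 genes) had a wider and 0.0205% (3 genes) a narrower peak in S7KO at an adjusted p under 0.05. The log2 differences of the histone genes, S7KO minus WT, were positive for 33 and negative for 28, with a median of 0.0087 against -0.015 over all genes tested. Without centring, 49 were positive and 12 negative, with a median of 0.048 against 0.025 over all genes. Genes under 1 shared peak carried the same difference, as H4c1, H3c1 and H1f1 with 0.036, so the genes counted here are not independent. Without WT replicate 2 the median of the histone genes was 0.025. The 3 libraries of a group were biological replicates per the study, and how many mice gave each was not stated for ATAC-seq, so the p-values measure the spread between these libraries.

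Widths in bp, not centred on the library median, were also compared library by library. Every S7KO library lay above every WT library for 4 of the 61 histone genes (6.56%), H4c18, H4c6, H3c4 and H2ac18. This was close to the 6.87% of all genes tested. The reverse was found for 0 of 61, against 1.66% of all genes. H4c18 had 3138, 3152 and 3091 bp in S7KO replicates 1, 2 and 4, and 3056, 303 and 271 bp in WT replicates 1, 2 and 4. WT replicate 1 was thus close to S7KO and the other WT libraries far below, and the peak lay 410 to 463 bp from the 5′ end in all of them. Its log2 difference was 2.27 with an SE of 0.94 (limma adjusted p = 0.966), and without WT replicate 1 it was 3.38 (limma adjusted p = 0.0031). H4c18 is the gene shown with its copy H4c17, which had no peak.

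H4c6, an H4 gene of the distal group, had 897, 1056 and 872 bp in S7KO replicates 1, 2 and 4, and 648, 533 and 826 bp in WT replicates 1, 2 and 4. Its log2 difference was 0.47 with an SE of 0.16 (limma adjusted p = 0.966). H3c4, an H3 gene, had 1181, 1218 and 1283 bp in S7KO and 1102, 1101 and 1080 bp in WT, a log2 difference of 0.12. H2ac18 had 1405, 1425 and 1432 bp in S7KO and 1363, 1306 and 1207 bp in WT, a log2 difference of 0.10. In H4c6 the S7KO and WT groups were separated by 46 bp, in H4c18 by 35 bp, and none of these genes passed the adjusted threshold.

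**Figure D4:**
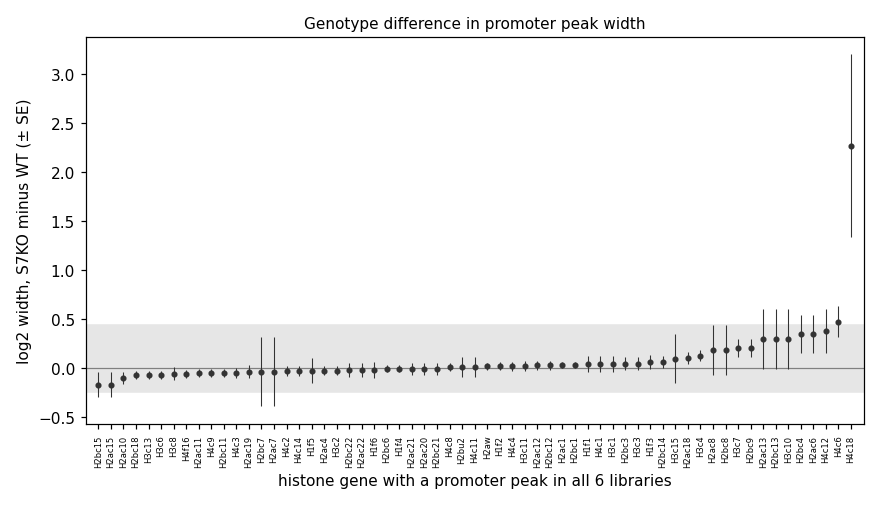
Difference in log2 promoter peak width (S7KO minus WT, centred on the library median) with its limma SE for the 61 histone genes with a peak in all 6 libraries, sorted by size. The grey band holds the middle 95% of all 14609 genes tested (-0.25 to 0.44), and only H4c6 and H4c18 lie outside it.

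Summed over the histone gene groups, from the first to the last gene of each, peaks covered 125.4, 126.2 and 125.2 kb in S7KO replicates 1, 2 and 4, and 125.4, 104.9 and 122.2 kb in WT replicates 1, 2 and 4. These sums take in every peak of the groups, also away from histone genes. The groups held 96 to 105 peaks by library, against 41 or 42 separate promoter peaks of histone genes. The means were 125.6 ± 0.551 kb in S7KO against 117.5 ± 11.04 kb in WT (mean ± SD over 3 libraries), and WT replicate 1 lay within the range of the S7KO libraries. WT replicate 2, which covered least of the genome, was also the lowest here. Without it the WT mean was 123.8 kb, and the difference of 8.09 kb between the genotypes fell to 1.79 kb. The proximal group of chromosome 13 was covered over 15.1% to 19.3% of its length, the distal group over 10.2% to 12.2% and the chromosome 3 group over 22.9% to 26.0%.

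The genes that act on histone genes were open as well. Promoter peaks were present in all 6 libraries for 12 of 12 genes of histone gene transcription and mRNA processing, with median widths between 766.5 and 1844 bp. Over all protein-coding genes the share with such a peak was 68.2%. Npat, the organiser of the histone locus body, had peaks of 1435, 1453 and 1472 bp in S7KO replicates 1, 2 and 4, and 1493, 1439 and 1459 bp in WT replicates 1, 2 and 4, ranked in the top 0.57% to 0.942% of each list. Hinfp, which encodes a regulator of H4 genes, ranked in the top 0.0848% to 0.384%, with 937 to 1111 bp. Slbp, whose product binds the stem loop of histone mRNAs, had peaks of 1311 to 1349 bp. Products of replacement variant genes can enter chromatin outside S phase. Of the 11 such genes listed, 10 had a promoter peak in all 6 libraries, with median widths between 1203 and 2579 bp. The remaining one, H3f3b, had its nearest peak 1203 to 1209 bp from the 5′ end used here. None of the genes of these lists that were tested differed between S7KO and WT at an adjusted p under 0.05 in limma.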

How the data were processed

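ATAC-seq peak lists of 3 S7KO and 3 WT libraries were analysed. Per the labels and the study, the authors trimmed reads (Trim Galore 0.6.6), aligned them to mm10 (Bowtie2 2.4.4.1), kept uniquely aligned, non-duplicate reads (SAMtools 1.19.2), removed mitochondrial reads, shifted ends for Tn5, selected fragments by length and called broad peaks per library with MACS2 2.2.5 at a broad cutoff of 0.1. The study's results name nucleosome-free fragments, whereas the length limits in its methods leave those out. Which of them the deposited peaks, and so their widths, were called on was not settled here. The deposited lists hold peak coordinates, a display score, a fold enrichment (ratio of pileup to background), and p-values and q-values written as −log10 by the authors' caller. The score, the fold and the p-value were not used for any result, and the lists hold no read counts.

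Gene starts and ends came from a RefSeq table of GRCm38.p6, the build of the files. The strand came from the RefSeq promoter table for 17491 genes and from the GENCODE gene of the same symbol and chromosome for 3945, including 5 histone genes without a promoter entry (H2bc21, H4c14, H3c7, H2bc4 and H3c1). Where both gave a strand (15717 genes), 101 differed. For each gene the peak nearest to the 5′ end within 1 kb was taken, with its width (end minus start) and its rank by −log10 q in its list. Log2 widths were centred on the library median and fitted with limma 3.58.1, with Benjamini-Hochberg adjustment over all genes tested. The fit was also run on simulated widths with a common spread and changes of 1 log2 unit. Those changes were larger than most seen here, so the run does not bear on small differences. Copies were sought with blastn 2.17.0 against GRCm39, at 100 bases or more and 95% identity or more, since no mm10 genome was used here. GRCm39 coordinates are not given.

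Groups are those of the labels. A second label numbers the libraries 2, 3 and 4, in the same order. Deviations from the group means of libraries with the same number correlated at 0.074, -0.012 and 0.11, so the numbers were not used as pairs. The histone genes, the gene lists and the rules were chosen with earlier results of these data known. Genes named were those without a peak, the 5 widest and 5 narrowest, those whose genotypes did not overlap or passed the test, the testis-type genes, those under the 5 longest joining peaks, those outside chromosome 13 and those whose sequence is shown. H4c11 and the copies on chromosome 3, with the pair H4c17 and H4c18 as sequences, were chosen after their values were seen, as were the best ranked genes. Reads, coverage and the authors' own differential test were not used here.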

Additional observations from a re-analysis of the deposited data

How the results depend on the processing

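Of 68 recomputed values, 62 counted as unmoved. Differences did so if they moved by no more than the spread between replicates. Counts of called genes did so if they changed by no more than 1.5 times. The 10 recounts of histone genes with a peak in all libraries of 1 genotype and none of the other stayed at 0. For the differences the spread was larger than the value itself, so small moves or a change of sign could pass. It was 11.04 kb against 8.09 kb for covered length and 0.085 against 0.0087 for the median log2 width difference. For joined genes, covered length and genes with a promoter peak the value was the difference between genotype means. Joined genes themselves rose with a window of 2 kb, from 37.3 in both genotypes to 50.3 in S7KO and 50 in WT, while their difference stayed within the spread. The difference in covered length was 1.79 to 12.04 kb when 1 library was left out, with the lowest value without WT replicate 2. With a window of 500 bp the difference in genes with a promoter peak between S7KO and WT means was -0.33 in place of 0.33. Leaving out 1 library gave differences from 0 to 0.50. The 14 genes called for width over all protein-coding genes became 1 with the replicate number as a replicate block, where no histone gene was called. They ranged from 12 to 42 when 1 library was left out, with 37 without S7KO replicate 4, 42 without WT replicate 1, 23 without WT replicate 2 and 27 without WT replicate 4. H4c18 was called only without WT replicate 1. The cause of these changes was not tested. The median log2 width difference was -0.0034 without S7KO replicate 2. Peak widths without read counts limit the precision, and a change of height under an unchanged width could not be seen.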

Other observations

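Histone pseudogenes of the same naming lay under peaks too. H2ac14, H2bu1-ps, H2ac5-ps and H2af-ps2 were each overlapped by a peak in all 6 libraries. For H2ac14 the peak measured 1301 to 1522 bp and was the peak of the neighbouring H2bc14, for H2bu1-ps it was that of H2aw, and for H2ac5-ps that of H3c3 and H2bc3. H2af-ps2, which lies apart from the histone gene groups at chr13:51200084-51203066 (mm10), was overlapped by peaks of 1310, 1269 and 1394 bp in S7KO replicates 1, 2 and 4, and of 1326, 1044 and 1298 bp in WT replicates 1, 2 and 4.

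H2bc6, an H2B gene, has a long gene model whose 5′ end in the table lies beside H1f4, so its width in the report is that of the H1f4 peak. A second annotated start 35154 bp away lay under a peak of its own, with 2369, 2553 and 2471 bp in S7KO replicates 1, 2 and 4, and 2266, 2473 and 2404 bp in WT replicates 1, 2 and 4.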
